A study of Drosophila melanogaster with 4 samples.

Results

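The genes described here are 10 core genes of the Polycomb and Trithorax groups, taken by name from the tables of 4 RNA libraries: Pc, ph-p, ph-d, Psc, Sce, E(z), Su(z)12, esc, trx and ash1. All 10 were found, each as a single entry, among 16510 gene names. The libraries hold polyadenylated RNA from 50 testes of Drosophila melanogaster males aged 3 days, which lived at 23 °C. There were 2 libraries of flies with the genotype Su(var)3-9, called mutant here, and 2 of wild-type flies, and the series calls the replicates biological. The sources used here give neither the mutant allele nor the wild-type strain. Su(var)3-9 is a methyltransferase of histone H3 at lysine 9, the mark of heterochromatin.

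Polycomb group proteins keep developmental genes silent and Trithorax group proteins keep them active. They work in complexes on chromatin. Polycomb repressive complex 2 (PRC2) methylates histone H3 at lysine 27 through its enzyme E(z), with Su(z)12 and esc as the subunits that make the enzyme active. Polycomb repressive complex 1 (PRC1) holds Pc, whose chromodomain binds that mark, the ubiquitin ligase Sce, also known as Ring, the compaction factor Psc and the polyhomeotic proteins ph-p and ph-d. On the Trithorax side, trx methylates histone H3 at lysine 4 and ash1 at lysine 36. In the fly testis, E(z) is known to act in the somatic cyst cells that enclose the germ cells, and testis-specific transcription factors of spermatocytes have been linked to Polycomb at the genes they switch on.

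Values are FPKM, fragments scaled to transcript length and library size, which can be compared between genes because they are per length. Each comes with the 95% interval Cufflinks gave it. The fragments behind the values, estimated from these intervals, came to 1446647 and 1468278 in all in the mutant libraries and to 3207719 and 3366747 in the wild type, so depth differed with genotype. Mutant replicate 1 listed Su(var)3-9 itself at 0 FPKM, while mutant replicate 2 held 7.83 FPKM and the wild-type libraries 7.93 and 9.74 FPKM. The gene shares 14.8% of its exon length with eIF2gamma on the same strand. With the lesion unknown, its level in mutant replicate 2 does not bear out the label and does not settle it. On log2(FPKM + 1), that library correlated at 0.948 with mutant replicate 1 and at 0.895 and 0.907 with wild type replicates 1 and 2. Every direction below is between libraries as labelled. Markers of testis germ cells were present in all 4 libraries. The summed level of 12 spermatid markers was 59539 and 56228 FPKM in mutant testes against 34733 and 32207 FPKM in wild-type testes, and that of 7 early germline markers 72.1 and 74.3 FPKM against 119 and 120 FPKM, with nos listed at 0 in all libraries. The accessory gland markers, of another organ, stood apart in wild type replicate 1, where 9 of them summed to 965 FPKM against 5.69 to 43.6 FPKM in the other libraries. Markers of fat body summed to 119 and 96.3 FPKM in mutant against 36.1 and 30.2 FPKM in wild-type testes. Those of muscle summed to 726 and 741 FPKM against 488 and 499 FPKM. Single markers differed in direction. Of 3 fat body markers tested, 2 had a log2 fold change above 0 and 1 below, and of 7 muscle markers 4 above and 3 below. The part of these tissues in the results was not tested. Fewer cells of a type and less RNA per cell cannot be told apart in such bulk samples.

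In wild-type testes the 10 genes spanned levels from under 1 to over 30 FPKM. The histone methyltransferase gene ash1 was the highest, at 33.0 ± 1.57 FPKM (SD, n = 2), above 66.9% of the 10784 genes tested. The PRC2 genes Su(z)12 at 14.2 ± 0.774 FPKM and E(z) at 9.17 ± 0.833 FPKM followed, then Sce at 6.59 ± 0.156 FPKM, trx at 5.18 ± 0.386 FPKM and esc at 4.11 ± 0.681 FPKM. At the low end, Pc was at 2.62 ± 0.514 FPKM, ph-d at 1.13 ± 0.152 FPKM, Psc at 0.864 ± 0.0391 FPKM and ph-p at 0.699 ± 0.196 FPKM. The PRC1 genes other than Sce were thus the lowest of the set: Pc was above 14.2% of the tested genes, and ph-d above 3.94%. Of neighbours in this order, the wild-type values of Psc and ph-p overlapped between libraries, and the intervals separated ash1 from Su(z)12 and Su(z)12 from E(z) but no later pair.

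**Figure D1:**
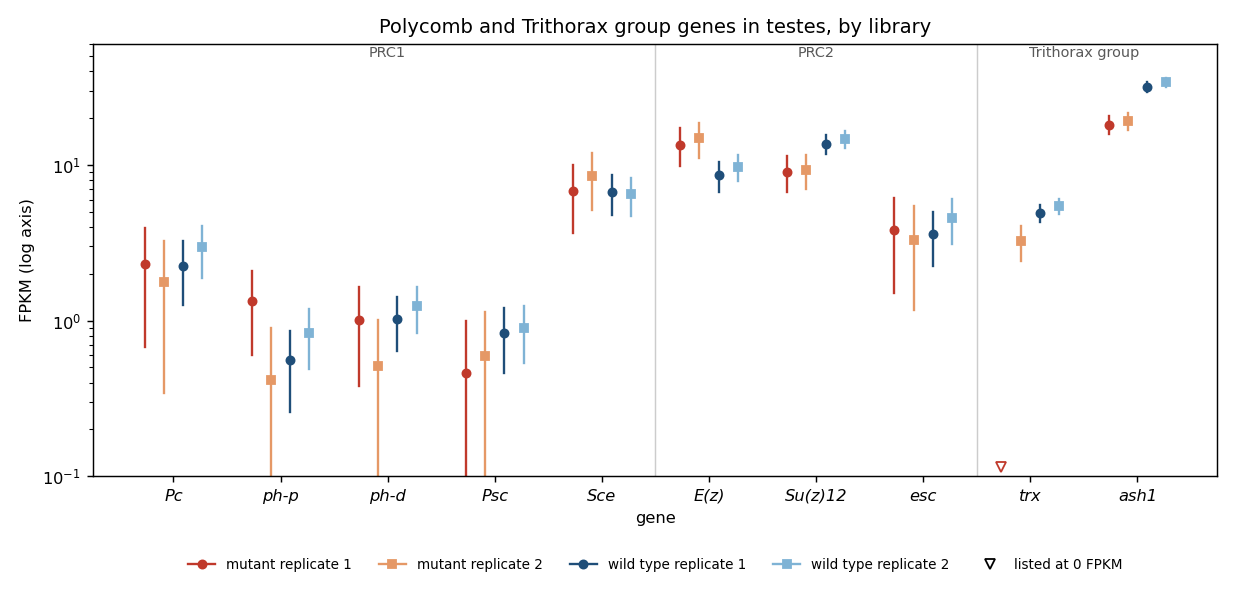
FPKM (log axis) of the 10 genes in each of the 4 libraries, grouped by complex; points are single libraries, vertical lines the 95% intervals of Cufflinks, truncated at the bottom of the axis, and the open triangle a listed 0. The 2 mutant values of ash1 and of Su(z)12 lie below both wild-type values, those of E(z) above them, and trx is listed at 0 in mutant replicate 1.

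The series set mutant against wild-type testes, and limma was run on log2(FPKM + 1) over all genes that averaged 1 FPKM or more. Of 10784 genes tested, 20.1% passed at an adjusted p under 0.05, 11.4% higher and 8.67% lower in the mutant. That is 1229 higher and 935 lower genes, a split that turned to 849 and 982 under quantile normalization. Of the 10 genes, 7 reached the level for testing, and 1 of these 7, ash1, fell, while none rose. At an unadjusted limma p under 0.05 there were 3 of the 7, ash1 and Su(z)12 lower and E(z) higher. Of the 10784 genes tested, 3989 were under it too. The share called, 14.3% of the 7, was no higher than the 20.1% of all tested genes. The median log2 fold change of the 7 was -0.25, or -0.20 without trx, beside -0.01 over all tested genes. Groups did not overlap for 2 of the 7 in the higher direction (E(z) and Sce) and for 3 in the lower (ash1, Su(z)12 and trx), where 32.2% and 32.7% of all tested genes did the same. The Cufflinks intervals, too, lay apart for those 3 lower genes (for trx with its listed 0 counted) and for no higher one, as in 9.31% and 8.83% of all tested genes.

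The Trithorax group gene ash1 (3L, 19590773 to 19598755, dm6, minus strand) encodes a methyltransferase of histone H3 at lysine 36 that counteracts Polycomb silencing. It was at 18.2 and 19.2 FPKM in mutant testes, against 31.9 and 34.1 FPKM in wild-type testes. Both mutant values were below both wild-type values, and their intervals, up to 21.7 FPKM, did not reach the wild-type ones, which began at 29.6 FPKM. The log2 fold change was -0.79 (SE 0.11, 95% confidence interval -1.08 to -0.49, limma adjusted p = 0.0192), on an estimated 239 to 855 fragments per library. Its transcript is long, at 7615 bases, and in 869 tested genes of 5000 to 10000 bases the median log2 fold change was -0.43, with quartiles of -0.69 and -0.18. With the trend on transcript length removed from each library, the log2 fold change of ash1 was -0.33 (95% confidence interval -0.57 to -0.08) and it no longer passed (limma adjusted p = 0.0880). It also did not pass without any 1 of the 4 libraries (limma adjusted p from 0.0759 to 0.190), where few or no genes at all passed.

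The other Trithorax member, trx (3R, 14263359 to 14286903, dm6, minus strand), encodes a methyltransferase of histone H3 at lysine 4. It was listed at 0 FPKM in mutant replicate 1 and at 3.25 FPKM in mutant replicate 2, against 4.90 and 5.45 FPKM in wild-type testes. The value of mutant replicate 2 rested on an estimated 62.6 fragments and its interval, 2.43 to 4.07 FPKM, lay below the wild-type intervals, which began at 4.28 FPKM. The 0 of mutant replicate 1, a library of like depth, is not read as absence. In that library 54 of 7938 genes with at least 3 FPKM in each of the other 3 libraries were listed at 0, Su(var)3-9 and trx among them, against 52, 16 and 36 in mutant replicate 2 and wild type replicates 1 and 2. With all libraries the limma adjusted p of trx was 0.220, and without mutant replicate 1 the log2 fold change was -0.54 with an adjusted p of 0.158. Its longest transcript has 14052 bases, and 149 tested genes over 10000 bases had a median log2 fold change of -0.66. An antisense RNA gene covers 4.06% of the exon length of trx, and no source used here says whether counting was by strand.

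None of the 3 PRC2 members passed, and their values lay on both sides of 0. The enzyme gene E(z) (3L, 10634575 to 10638130, dm6, minus strand) was at 13.5 and 14.8 FPKM in mutant testes, against 8.58 and 9.76 FPKM in wild-type testes. Both mutant values were above both wild-type values, but their intervals met, the lowest mutant one beginning at 9.87 FPKM and the highest wild-type one ending at 11.6 FPKM. Its log2 fold change was 0.58 (SE 0.15, 95% confidence interval 0.18 to 0.98) and did not pass (limma adjusted p = 0.0636). With the length trend removed it was 0.63 (limma adjusted p = 0.0552), and in the 1932 tested genes of 2000 to 3000 bases, the class of E(z), the median was -0.04 with quartiles of -0.34 and 0.23.

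The PRC2 subunit gene Su(z)12 (3L, 19918242 to 19923462, dm6, minus strand) was at 9.04 and 9.32 FPKM in mutant testes, against 13.7 and 14.8 FPKM in wild-type testes. Here the mutant values and intervals, up to 11.6 FPKM, lay below those of the wild type, which began at 11.8 FPKM. The log2 fold change was -0.58 (SE 0.13, 95% confidence interval -0.94 to -0.22), just short of the threshold (limma adjusted p = 0.0519). With the length trend removed it was -0.35 (limma adjusted p = 0.132), and the 1572 tested genes of 3000 to 5000 bases had a median of -0.24. The log2 fold changes of E(z) and Su(z)12 had the same size with opposite signs, and their order differed between the genotypes, though in mutant testes the Cufflinks intervals of these subunit genes overlapped: E(z) was at 0.627 and 0.660 times the FPKM of Su(z)12 in the wild-type libraries and at 1.5 and 1.59 times in the mutant libraries. This ratio within a library does not depend on the scaling to library size, and it was chosen after its values were seen. By an exact two-sided permutation test its p was 0.33, the smallest that 2 against 2 libraries can give.

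The third PRC2 member, esc (2L, 11827204 to 11829405, dm6, minus strand), encodes the WD-repeat subunit. It was at 3.80 and 3.31 FPKM in mutant testes, against 3.62 and 4.59 FPKM in wild-type testes, and these values overlapped. The log2 fold change was -0.16 (95% confidence interval -0.76 to 0.44, limma adjusted p = 0.641), on an estimated 9.60 to 37.6 fragments per library. Changes of either sign lie within that interval. Under quantile normalization the value was at 0.00. Its paralog escl, untested for its low level, was listed at 0 FPKM in mutant replicate 2 and at 0.818 to 1.69 FPKM in the other libraries.

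**Figure D2:**
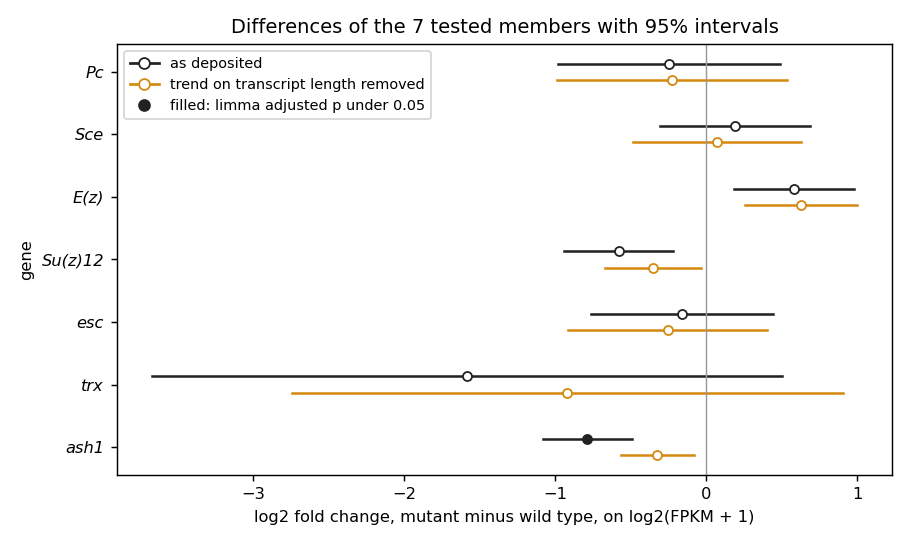
log2 fold change (mutant minus wild type, on log2(FPKM + 1)) of the 7 tested genes, with 95% confidence intervals from limma as lines, as deposited in black and with the trend on transcript length removed in orange. Only the black point of ash1 is filled, for an adjusted p under 0.05; E(z) stays above 0 and Su(z)12 below 0 in both, and the wide lines of trx rest on its listed 0 in mutant replicate 1.

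Among the PRC1 members, Pc and Sce were tested and neither passed. Sce (3R, 27680431 to 27682029, dm6, minus strand), the ligase that puts ubiquitin on histone H2A, was at 6.81 and 8.56 FPKM in mutant testes, against 6.70 and 6.48 FPKM in wild-type testes. Its mutant values were above the wild-type values by little, with a log2 fold change of 0.19 (95% confidence interval -0.31 to 0.68, limma adjusted p = 0.501). Pc (3L, 21306138 to 21318020, dm6, minus strand) was at 2.30 and 1.78 FPKM in mutant testes, against 2.25 and 2.98 FPKM in wild-type testes. Those values overlapped, and the log2 fold change was -0.25 (95% confidence interval -0.98 to 0.49, limma adjusted p = 0.548), on as few as an estimated 6.10 fragments in a mutant library. For both genes the interval holds values on either side of 0.

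The other 3 PRC1 members were too low to test, with a mean under 1 FPKM over the 4 libraries. Psc (2R, 12965997 to 12980994, dm6, minus strand) was at 0.460 and 0.595 FPKM in mutant testes, against 0.836 and 0.891 FPKM in wild-type testes, and the mutant values rested on an estimated 3.00 and 4.8 fragments. The adjacent paralogs ph-p (X, 2126210 to 2138371, dm6, minus strand) and ph-d (X, 2115727 to 2123286, dm6, minus strand) are near-identical copies over long stretches, so the split of fragments between them is uncertain. ph-p was at 1.34 and 0.418 FPKM in mutant testes, against 0.560 and 0.837 FPKM in wild-type testes. ph-d was at 1.02 and 0.512 FPKM in mutant testes, against 1.03 and 1.24 FPKM in wild-type testes. The mutant values of ph-p lay on both sides of those of the wild type, and those of ph-d were just below them, with overlapping intervals. Without a filter on low values none of the 3 passed (limma adjusted p = 0.125 for Psc, 0.535 for ph-d and 1.0 for ph-p).

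The partners of these proteins were read from lists of other Polycomb and Trithorax group genes. Of 64 such genes in the files 59 were tested, and 2 rose, 9 fell and 48 did not pass, which is 18.6% called beside 20.1% of all tested genes. Their median log2 fold change was -0.36, or -0.37 without calypso, and 46 of the 59 values were below 0. These are genes with long transcripts, at a median of 4608 bases against 1704 bases over all tested genes. With the length trend removed the median was -0.14, and 3 rose and 3 fell, beside 7.81% higher and 5.78% lower of all tested genes.

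By complex, PRC1 and PRC2 held no called gene, neither among the members nor among the 4 and 4 other genes tested. Scm, a PRC1-associated protein, was at 11.2 and 10.7 FPKM in mutant and 16.5 and 21.9 FPKM in wild-type testes (log2 fold change -0.74, limma adjusted p = 0.0603), and the ring finger gene l(3)73Ah at 44.4 and 55.6 against 38.4 and 30.9 FPKM (0.52, limma adjusted p = 0.120). Pcl, a PRC2 accessory protein, was at 12.4 and 13.4 FPKM against 18.7 and 19.7 FPKM (-0.54, limma adjusted p = 0.0504). The histone-binding PRC2 subunit Caf1, now Caf1-55, was at 21.1 and 10.3 FPKM in mutant and 15.2 and 15.8 FPKM in wild-type testes, with mutant values on both sides of those of the wild type.

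The PhoRC and PR-DUB list had 3 of its 5 genes called. pho, the DNA-binding protein that brings Polycomb complexes to their sites, fell from 58.9 and 62.2 FPKM in wild-type testes to 32.8 and 27.1 FPKM (log2 fold change -1.0, SE 0.13, limma adjusted p = 0.0176). It passed also after length removal (-0.99, limma adjusted p = 0.0195), but not with no filter on low values (limma adjusted p = 0.0606). Asx, a subunit of the deubiquitinase that removes the mark laid by Sce, fell from 26.7 and 29.8 FPKM to 17.1 and 13.8 FPKM (-0.84, limma adjusted p = 0.0349, and 0.144 with the length trend removed). The catalytic subunit of that deubiquitinase, calypso, now caly, went the other way, from a listed 0 FPKM in both wild-type libraries to 9.67 and 8.89 FPKM in mutant testes (limma adjusted p = 0.00838). A listed 0 gives no fold, and 10.1% of the exon length of calypso overlaps the gene clu on the opposite strand, which was at 47.9 and 53.0 FPKM in wild-type testes and at 29.9 and 28.3 FPKM in mutant testes. Whether the listed 0 of calypso stands for its level was not tested.

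Of the recruiters and other Polycomb genes 1 of 11 fell, E(Pc), a subunit of a histone acetyltransferase complex, from 17.3 and 19.3 FPKM to 8.42 and 8.40 FPKM (log2 fold change -1.03, limma adjusted p = 0.0176, and 0.0649 with the length trend removed). All 11 values were below 0, at a median of -0.34, but after length removal 3 of the 11 were above 0 and the median was -0.12. Spps, another DNA-binding recruiter singled out afterwards, was listed at 0 in all 4 libraries. Of 13 other genes of the complexes around trx, trr and Set1, Hcf (-0.48, limma adjusted p = 0.0439) and Ncoa6 (-0.88, limma adjusted p = 0.0437) fell, and neither passed after length removal (limma adjusted p = 0.936 and 0.219). Among 3 genes listed with ash1, nej, the acetyltransferase CBP, fell from 13.8 and 18.8 FPKM to 7.62 and 8.30 FPKM (-0.94, limma adjusted p = 0.0438, and 0.236 with the length trend removed). The ash1 partner MRG15, named after its values were seen, was at 10.2 and 7.36 FPKM in mutant testes, against 4.5 and 4.83 FPKM in wild-type testes, with both mutant values above, and did not pass (0.77, limma adjusted p = 0.0793).

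Of the 13 remodelling genes of the Trithorax group, 1 rose and 2 fell, and all 3 passed after length removal too. E(bx), the large subunit of the NURF remodeller, fell from 53.4 and 59.8 FPKM to 24.1 and 24.7 FPKM (log2 fold change -1.18, SE 0.10, limma adjusted p = 0.00994, and 0.0160 with the length trend removed). Its ATPase Iswi fell from 114 and 112 FPKM to 60.8 and 68.5 FPKM (-0.80, SE 0.09, limma adjusted p = 0.0146, and 0.0224). dalao, now Bap111, a subunit of the BRM complex, rose from 25.1 and 24.8 FPKM to 36.0 and 35.1 FPKM (0.49, SE 0.09, limma adjusted p = 0.0365, and 0.0373). With no variance trend in limma, dalao did not pass (limma adjusted p = 0.0648). In the remaining Trithorax list skd, a subunit of the Mediator kinase module, fell from 14.8 and 15.3 FPKM to 6.78 and 7.17 FPKM (-1.01, limma adjusted p = 0.0185, and 0.104 with the length trend removed). tna, singled out afterwards, at 154 and 151 FPKM in mutant and 127 and 135 FPKM in wild-type testes, passed only after length removal (0.59, limma adjusted p = 0.0151, and 0.102 before).

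**Figure D3:**
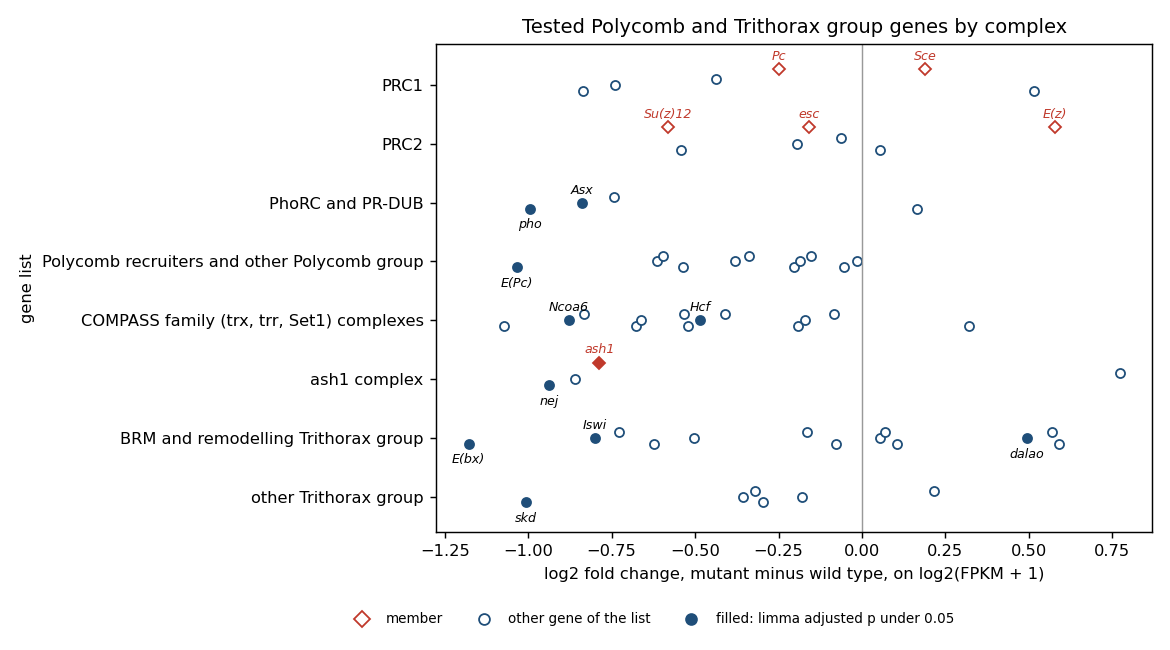
log2 fold change (mutant minus wild type, on log2(FPKM + 1)) of the tested Polycomb and Trithorax group genes by list; red diamonds are members, blue circles other genes, filled where the limma adjusted p is under 0.05. trx and calypso, whose values hold listed zeros, are not drawn; filled points lie below 0 except dalao.

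The plot of fold change against transcript length sets these genes beside all tested genes. The median log2 fold change over all tested genes went from 0.23 in 2744 genes of up to 1000 bases to -0.66 over 10000 bases. The low values of ash1 and Su(z)12 lay on the same side of 0 as the medians of their length classes, but below the lower quartiles. The value of E(z) lay above the upper quartile of its class, whose median was close to 0, at -0.04. Depth differed between the genotypes too, and so did the summed early germline markers. Of 5 such genes tested 2 fell and none rose, beside 8.67% lower of all tested genes. With the length trend removed 0 of these markers were called lower. The part of depth and of these markers in the lower values of ash1 and its partners was not tested.

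**Figure D4:**
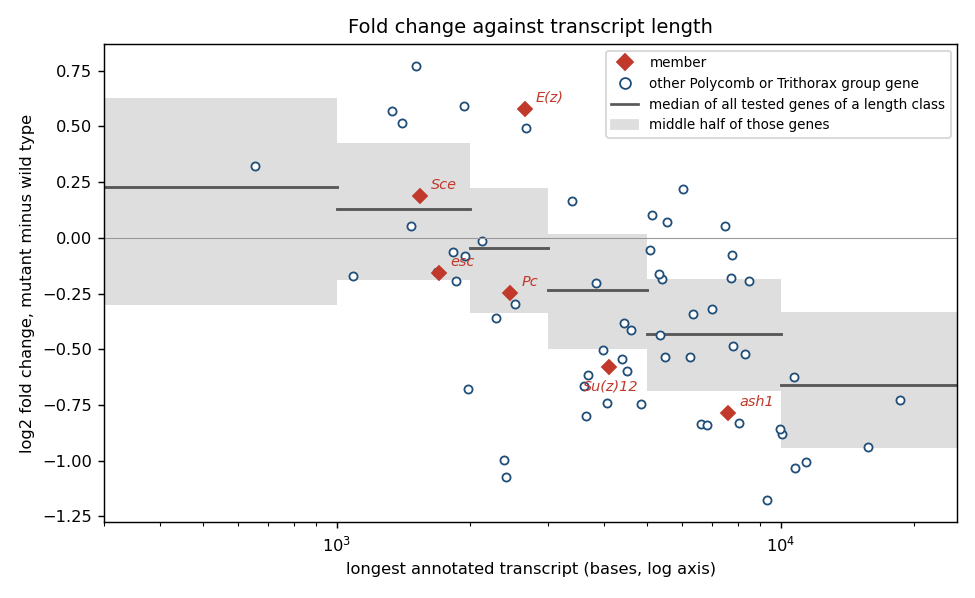
log2 fold change (mutant minus wild type) against the longest annotated transcript (bases, log axis), with members as red diamonds, other Polycomb and Trithorax group genes as blue circles, and the median (line) and quartile range (grey) of all tested genes in 6 length classes. ash1 at -0.79 and Su(z)12 at -0.58 lie below the grey band of their classes and E(z) at 0.58 above its own; trx and calypso, with listed zeros, are not drawn.

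Each member was set beside the gene of the other lists with the smallest Euclidean distance on log2(FPKM + 1) over the 4 libraries. For Su(z)12 this was osa, a BRM complex subunit, at a distance of 0.169, and for ash1 it was kis, a chromodomain helicase, at 0.230. osa was at 9.20 and 9.85 FPKM in mutant and 14.04 and 16.47 FPKM in wild-type testes, and kis at 17.3 and 22.6 FPKM against 32.1 and 34.8 FPKM. E(z) had no such close match, its nearest being phol at 0.893, with 8.80 and 9.21 FPKM in mutant and 7.76 and 8.09 FPKM in wild-type testes. trx, with its listed 0, was at 1.75 from ptip. The nearest gene of Pc was Jarid2 (0.375), of Sce e(y)3 (0.426) and of esc polybromo (0.510).

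Classical target genes of Polycomb silencing were read last, from a list of 8 Hox genes and one of 26 other developmental genes. Of the Hox genes 4 were tested and 1, lab, fell, from 7.96 and 10.2 FPKM in wild-type testes to 2.55 and 2.88 FPKM in mutant testes (log2 fold change -1.43, SE 0.21, limma adjusted p = 0.0221, and 0.0244 with the length trend removed), on an estimated 6.40 and 7.20 fragments in the mutant libraries. abd-A was at 8.28 and 8.14 FPKM in mutant and 12.8 and 12.1 FPKM in wild-type testes (-0.54, limma adjusted p = 0.0621). pb, at 2.93 and 2.42 FPKM against 2.63 and 3.15 FPKM, and Abd-B, at 1.23 and 1.68 FPKM against 1.61 and 1.75 FPKM, overlapped between the genotypes. The other 4 Hox genes, Dfd, Scr, Antp and Ubx, had too low a mean to test. With no filter on low values 1 of these, Antp, passed (limma adjusted p = 0.0358), beside 1173 of 16510 genes. Antp was at 0.380 and 0.322 FPKM in mutant testes, on an estimated 0.7 and 0.4 fragments. In wild-type testes it was at 1.02 and 1.14 FPKM, and the Cufflinks intervals of the genotypes overlapped.

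Of the 26 other targets 10 were tested and 6 were called, 2 higher and 4 lower, beside 11.4% and 8.67% of all tested genes. This list was chosen with earlier results of these data known. Its count beside that background therefore tests nothing about Polycomb targets as a class. The T-box gene Doc1 rose from 12.1 and 12.5 FPKM to 32.6 and 40.3 FPKM (log2 fold change 1.49, limma adjusted p = 0.0117) and the signal gene hh rose from 3.80 and 3.86 FPKM to 15.5 and 8.85 FPKM (1.4, limma adjusted p = 0.0462, and 0.0524 with the length trend removed). Of the lower ones the zinc finger gene salr fell from 27.6 and 28.3 FPKM to 14.4 and 15.4 FPKM (-0.86, limma adjusted p = 0.0172) and the Iroquois gene mirr from 3.52 and 3.02 FPKM to 0.612 and 0.732 FPKM, on an estimated 2.20 and 3.00 fragments (-1.35, limma adjusted p = 0.0409, and 0.0650 after length removal). The homeobox gene inv was at 0.735 and 0.422 FPKM in mutant testes, on an estimated 2.60 and 1.20 fragments and with intervals reaching 0, and at 11.3 and 14.6 FPKM in wild-type testes. It fell by 3.14 on the log2 scale (limma adjusted p = 0.00958). Its neighbour en, which shares Polycomb regulation with it, was at 0.834 and 0.680 FPKM in mutant testes, against 2.09 and 2.18 FPKM in wild-type testes and did not pass (limma adjusted p = 0.120). The genes hh, en and dac were named after their values were seen, and hh also marks the hub, a somatic niche of the testis. dac fell (-0.71, limma adjusted p = 0.0482, and 0.160 with the length trend removed). After length removal 3 of these 10 genes were called, 1 higher and 2 lower. Their 16 untested members include 2 that were listed at 0 in all 4 libraries, eve and tll. With no filter on low values 1 of the 16 passed, beside 1173 of 16510 genes. This was the Iroquois gene caup, listed at 0 in both mutant libraries and at 1.49 and 1.58 FPKM in wild-type testes (limma adjusted p = 0.00874).

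**Figure D5:**
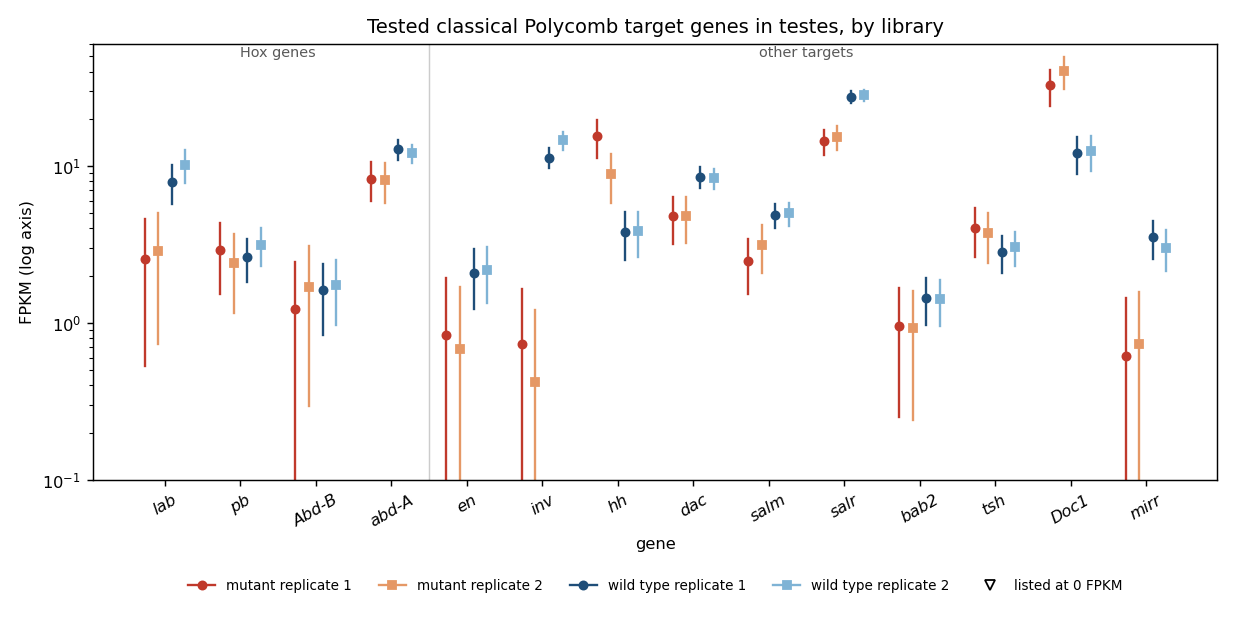
FPKM (log axis) of the 14 tested target genes, 4 Hox genes on the left and 10 others on the right, in each of the 4 libraries, with the 95% intervals of Cufflinks as vertical lines, truncated at the bottom of the axis. Among others, lab, inv, salr and mirr are lower in both mutant libraries than in both wild-type ones, and hh and Doc1 higher.

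Of 6 HP1 family genes tested, HP1b rose and 5 did not pass, beside 20.1% called of all tested genes. Their median log2 fold change was 0.14, and -0.014 with the length trend removed. None of the 3 genes for methyltransferases of histone H3 at lysine 9, Su(var)3-9 itself among them, passed limma's threshold. The value of Su(var)3-9 holds its listed 0 in mutant replicate 1. All 3 had log2 fold changes below 0, at a median of -0.69, and of -0.25 with the length trend removed. Of the 3, 1, G9a, had an unadjusted limma p under 0.05 (0.0202), as had 3989 of the 10784 genes tested. The members' difference from these sets was not tested.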

How the data were processed

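RNA of testes was sequenced on an Illumina MiSeq from TruSeq libraries, per the labels' protocols. The authors deposited 1 table of FPKM values per library, with the lower and upper bounds Cufflinks gives, per the file headers. TopHat, Cufflinks and the build dm6 come from the submitters' processing notes, with versions and strand use not stated there. Entries sharing a name were summed, which left 16510 gene names, and 16284 matched Ensembl release 115, the source of coordinates and lengths. Fragments per gene were estimated from the bounds and cover counting error only.

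The 2 mutant and 2 wild-type libraries were compared with limma 3.58.1 in R 4.3.3 (variance trend on) on log2(FPKM + 1) for genes averaging 1 FPKM or more, and p-values were Benjamini-Hochberg adjusted over all of them at 0.05. The pseudocount shrinks the fold changes of low genes. Transcript length was removed from each library by a loess curve of span 0.5. Tested on simulated data of 10784 genes at this size of design, the procedure recovered 20% of 100 genes changed 2-fold. It recovered 61% of 100 genes changed 4-fold, and 3.57% of its 84 calls were false. The changed genes were drawn from those with a mean log2(FPKM + 1) above 2, so the recovery does not cover lower genes. The simulation gave a gene the same noise in every library and held no length trend. In the libraries themselves 20.1% of tested genes were called, and whether these rates hold there was not tested. Alternatives were another pseudocount, other filters, quantile normalization, no variance trend, a replicate block, length removal and leaving out each library.

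The members and gene lists were chosen with earlier results of these data known. Named were all 10 members, up to 4 called genes of each other list (with none called, the 2 highest), tested Hox genes, and for each member the most similar gene of the other lists. Exceptions are marked.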

Additional observations from a re-analysis of the deposited data

How the results depend on the processing

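Against 2164 genes called in all, the total was 1173 with no filter on low values, 1103 with no variance trend, 1671 with the replicate block and 1095 with the block and length removal together, and 0 to 262 when 1 library was left out. Of the members, 1 was called; it was 2 (Su(z)12 beside ash1) with a pseudocount of 0.1, with a filter at 5 FPKM and among genes above 0 in all 4 libraries, 1 with the block, 0 with length removal, 0 with the block and length removal, and 0 to 0 without any 1 library. With 1 library left out, log2 fold changes were -0.83 to -0.74 for ash1, -0.63 to -0.53 for Su(z)12 and 0.50 to 0.66 for E(z). The other Polycomb and Trithorax group genes called went from 11 to 7 with no filter. They numbered 18 among genes above 0 in all libraries, 7 with the block, 6 with length removal, and 5 with the block and length removal. With the block dalao did not pass (limma adjusted p = 0.0728), while pho, E(bx) and Iswi did (0.0287, 0.0184 and 0.0247). The members' median log2 fold change of -0.25 was -0.046 under quantile normalization and -0.39 to -0.10 with 1 library left out. No named result turned its direction while called. Same-numbered libraries did not deviate together (correlation -0.0499 across genes), so no pairing was seen and the block is given only here. Whether they shared a preparation was not tested. Leaving out a mutant library leaves 1 to stand for the genotype, taken to vary like the wild type. Depth limits Pc, esc, Psc, ph-p and ph-d most: half-widths of Cufflinks' intervals reached 116% of the value in mutant libraries and 54.0% in wild-type ones.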
